A study of Caenorhabditis elegans with 40 samples.

Results

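The histone genes described here are the 61 *C. elegans* genes listed in the deposited tables under a name of his and a number, among 41560 genes. They were chosen by name alone. Other his genes, such as *his-9* and *his-11*, are annotated beside members but are not listed there under such a name. The 61 are therefore not the full set of the worm. The class lists used here were written by hand from gene names and were not checked against protein sequences. By these lists, 1 member encodes a linker histone H1, 13 encode H2A and 15 encode H2B. A further 12 encode H3, 14 encode H4 and 6 encode proteins of the H3.3 type. RNA was sequenced from whole animals in 40 libraries, 5 for each of 8 groups. The groups were wild-type N2 animals and *npr-8(ok1439)* mutants, which lack a neuronal G protein-coupled receptor related to neuropeptide Y receptors, grown at 20°C or 25°C for at least 2 generations on *E. coli* OP50 and collected as young or as 9-day-old adults. The young animals are 0-day-old adults by the sample labels and 1-day-old adults by the study's methods. The mutant allele is a backcrossed deletion carried by every animal of its groups, and old animals had been washed and separated from their progeny. The study asked how loss of NPR-8 alters the response of aging animals to warm temperature. In this report the histone genes are compared between temperatures, ages and genotypes, with 5 libraries a group in each comparison. The labels do not say whether the libraries of a group came from separate cultures, so that the tests measure the spread between these samples only.

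Histones package DNA into nucleosomes. Each nucleosome holds 2 copies each of the core histones H2A, H2B, H3 and H4, and a linker histone of the H1 family binds where DNA enters and leaves it. In *C. elegans* most core histone genes are present in many nearly identical copies, arranged in clusters and in head-to-head pairs, and are used mainly when DNA is replicated. RNA from such genes usually ends in a stem-loop instead of a poly(A) tail. The H3.3-type genes encode replacement histones that are laid down outside of replication, and their RNAs are polyadenylated in the usual manner. In adult hermaphrodites the body cells no longer divide, so that the germ line and the embryos held in the uterus are the sites of DNA replication. Libraries were made from poly(A)-selected RNA, a selection under which stem-loop RNAs are poorly recovered. How far this sets the levels given here was not tested.

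The libraries held 18690582 to 36883661 fragments on genes, with a median of 26451138. Levels are given as CPM, which is fragments per 1000000 after scaling by the trimmed mean of M-values (TMM), and fold changes on the log2 scale. The RNA of *npr-8* itself was not called between genotypes. Among young animals at 20°C its mean was 2.49 CPM in wild type and 2.69 CPM in *npr-8* mutants, with a log2 difference of 0.12 by the quasi-likelihood test of edgeR (Benjamini-Hochberg adjusted p = 0.457). At 25°C it was 0.19 in young animals (adjusted p = 0.375) and 0.29 in old animals (adjusted p = 0.0461). Which part of the gene the deletion removes was not used here, so that this level is no check of the genotype, and the genotype of a library is that of its label. Library 1 of young *npr-8* mutants at 25°C stood apart. Its scaling factor was 1.304 against 0.878 to 0.948 in the other libraries of its group. The summed level of body wall muscle genes was 1259 CPM against 3642 to 5338, and that of oocyte and embryo genes was 4430 against 9335 to 10040. In bulk RNA from whole animals, fewer cells of a type and less RNA per cell cannot be told apart.

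Many of the 61 genes had few or no fragments in these libraries. No fragment was assigned to 20 members in any library analysed for them, 10 members had 1 to 100 fragments over all libraries together and 31 had more. A count of 3 fragments in the median library equals 0.113 CPM, which is the level that a 0 in that library allows. The members with no fragment were 6 of the 13 H2A genes, 7 of the 15 H2B genes, 3 of the 12 H3 genes and 4 of the 14 H4 genes, whereas *his-24*, the H1 gene, and all 6 H3.3-type genes were detected. The genes at 0 were *his-10*, *his-12*, *his-13*, *his-14*, *his-16*, *his-20*, *his-27*, *his-28*, *his-30*, *his-34*, *his-43*, *his-44*, *his-49*, *his-50*, *his-51*, *his-52*, *his-53*, *his-54*, *his-58* and *his-66*. Those with 1 to 100 fragments were *his-15*, *his-17*, *his-18*, *his-29*, *his-39*, *his-42*, *his-45*, *his-46*, *his-47* and *his-57*. Of the 31 with more, 28 were tested in at least 1 comparison and *his-1*, *his-5* and *his-69* in none. The genes at 0 include most members of the clusters on chromosome II, where 7 of 10 were at 0, and 9 of 24 on chromosome V. What the authors' programs did with reads that fit several identical copies is not given in the sources used here, so that a 0 is a statement about reads assigned to the gene. For 10 members, values in 9-day-old *npr-8* mutants at 20°C were not analysed here, since these came from a transcript table whose rows were not matched to them. They were *his-14*, *his-20*, *his-29*, *his-42*, *his-43*, *his-44*, *his-49*, *his-50*, *his-51* and *his-58*. Their counts, including the 0 of all but *his-29* and *his-42*, therefore rest on the other groups.

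The 7 members with most fragments held 91.8% of the 472378 histone fragments. They were *his-72*, *his-74* and *his-71* of the H3.3 type, the H1 gene *his-24*, and the core genes *his-35* (H2A), *his-41* (H2B) and *his-37* (H4). Per length, in the authors' FPKM of young wild type at 20°C, *his-74* stood at 257 ± 45.8 (SD, n = 5), *his-71* at 234 ± 26.4, *his-72* at 229 ± 29.1, *his-35* at 193 ± 16.7, *his-37* at 153 ± 27.3, *his-41* at 149 ± 9.05 and *his-24* at 38.8 ± 13.2. Of the H3.3-type genes, *his-74*, *his-71* and *his-72* were thus level with each other within their spread at that age, above *his-37* and *his-41*. The other H3.3-type genes stood lower, *his-70* at 86.2, *his-73* at 2.84 and *his-69* at 0.42. In old wild-type animals at 20°C the order of FPKM was *his-72* (792 ± 40.9), *his-74* (614 ± 38.8), *his-24* (271 ± 26.2), *his-35* (132 ± 3.37), *his-41* (126 ± 6.85), *his-71* (120 ± 7.39) and *his-37* (111 ± 9.90). There the first 3 were apart from each other by more than their spread, and the other genes lay close together. Of 23 members whose interval is under 1000 bases, only *his-24*, *his-35*, *his-37*, *his-41*, *his-71* and *his-73* exceed the coding length by over 50 bases. All histone genes together held 323 to 653 of each 1000000 fragments in a library, before TMM scaling.

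**Figure D1:**
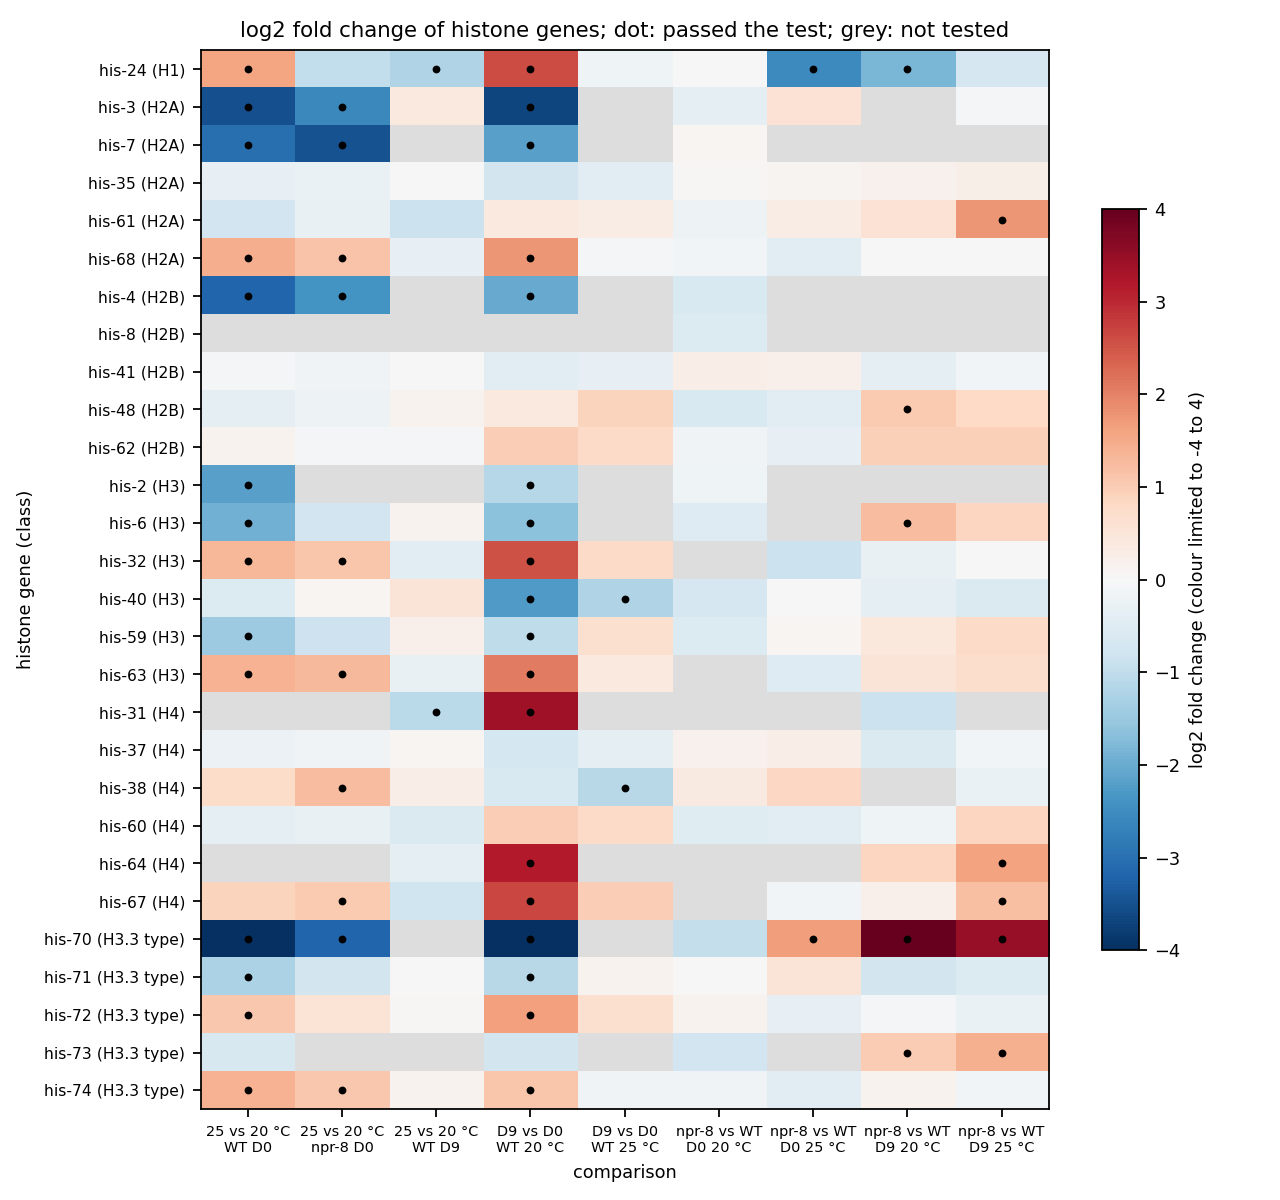
Log2 fold changes (colour, limited to 4 in either direction) of the histone genes tested, in rows ordered by histone class, for each pairwise comparison of 2 groups of 5 libraries, in columns. A dot marks a gene that passed the test and grey a gene that was not tested; *his-24* is higher and *his-70* lower in wild type with warm growth of young animals and with age at 20°C, and the signs of both are turned in the columns that compare *npr-8* mutants with wild type in old animals.

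Growth at 25°C was compared with growth at 20°C in young animals of each genotype and in old wild-type animals. A gene was called when the adjusted p of edgeR's quasi-likelihood test was under 0.05 and its level changed by at least 1 on the log2 scale. In young wild-type animals 6 of 25 tested members were higher at 25°C, against 21.4% of all genes tested, and 8 were lower, against 34.8%, shares near those of all genes. The median log2 change was -0.38 over these members and -0.14 over all genes tested. In young *npr-8* mutants 6 of 23 were higher at 25°C, against 12.8% of all genes, and 4 were lower, against 26.2%. In old wild-type animals none of 22 was higher, against 1.98%, and 2 were lower, against 4.25%. Of these 2, *his-31* passed the filter only through the 20°C group, in which it was high. In that comparison 2 were higher and 7 lower at an unadjusted p under 0.05, and DESeq2 called 0 higher.

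The age of wild-type animals was compared at each temperature. At 20°C, 9 of 27 tested members were higher in old wild-type animals, against 26.7% of all genes, and 9 were lower, against 36.7%, shares near those of all genes. The median was -0.42, beside -0.16 over all genes. At 25°C, 0 of 18 were higher, against 9.07%, and 2 were lower, against 15.4%. Of these 2, *his-38* needed the young libraries, in which it was high, to pass the filter. There edgeR gave 8 higher and 6 lower at an unadjusted p under 0.05, and 7 higher and 6 lower at an adjusted p under 0.05 with no minimum size, so that both directions occurred at 25°C with smaller changes. DESeq2 called 1 higher. The difference between both age effects was itself tested: 9 of 27 members had a higher and 8 a lower effect of age at 25°C than at 20°C, against 32% and 22% of all genes. The members tested differ between comparisons, because a gene enters when enough libraries of either group reach the minimum count, and a gene that enters only through the group in which it is high must differ between groups.

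In young animals at 20°C no histone gene was called between *npr-8* mutants and wild type. Of 23 tested members, 0 were higher, against 4.40% of all genes, and 0 were lower, against 1.47%. At an unadjusted p under 0.05 edgeR gave 2 higher and 7 lower, and DESeq2 and limma called 0. At 25°C, 1 of 20 was higher in young mutants (*his-70*, which passed the filter only through the mutants), against 14.4%, and 1 was lower (*his-24*), against 2.84%. In old animals at 20°C, 4 of 22 were higher, against 11.6%, and 1 was lower, against 9.45%. Among the 4, *his-70*, *his-73* and *his-6* passed the filter only through the mutants, in which they were high. In old animals at 25°C, 5 of 23 were higher, against 10.1%, and 0 were lower, against 3.50%. There edgeR gave 12 higher and 4 lower at an unadjusted p under 0.05, and DESeq2 and limma called 0 lower. Among the 5 higher at 25°C, *his-70*, *his-73* and *his-64* needed the mutant libraries to pass the filter. The numbers of higher members in old mutants are therefore no support for a common change. The effect of the mutation in young animals was itself higher at 25°C than at 20°C for 2 of 25 members and lower for 1, against 15.9% and 5.51% of all genes. At 25°C its effect was higher in old than in young animals for 10 of 23 members and lower for 2, against 9.05% and 11.6% of all genes. *his-70*, *his-73* and *his-64* are among these 10.

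The linker histone gene *his-24* changed between most groups. It lies on chromosome X from 14489936 to 14490798 in ce10, and HIS-24 is an abundant H1 of the worm with a known role in silencing in the germ line. In young wild type at 20°C the 5 libraries read 17.5, 17.5, 22.9, 25.1 and 37.2 CPM. In warm-grown young wild-type animals they read 55.8, 61.2, 63.99, 88.2 and 88.8, and in old wild-type animals at 20°C 126, 129, 140, 165 and 167. Neither of the latter groups overlapped with the young animals at 20°C, and old animals at 20°C were highest of all groups. The log2 change was 1.58 ± 0.22 (SE) with warm growth (edgeR adjusted p = 5.05e-05) and 2.62 ± 0.20 with age (adjusted p = 2.69e-07). In old wild-type animals at 25°C the libraries read 60.5 to 67.5, and the change with warm growth in old animals was -1.20 ± 0.08 (adjusted p = 1.08e-07). The gene thus rose with temperature in young and fell with temperature in old animals. Age at 25°C gave -0.16, and the age effects at 25°C and 20°C differed by -2.75 (adjusted p = 1.13e-08).

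In *npr-8* mutants *his-24* did not reach the wild-type levels of warm-grown or of old animals. Young mutants at 20°C read 20.6 to 26.95 CPM, which overlapped with wild type. Young mutants at 25°C read 6.76, 9.84, 11.7, 15.9 and 16.3, all below the lowest wild-type library of either temperature. The genotype difference there was -2.54 ± 0.23 on the log2 scale (edgeR adjusted p = 7.03e-06), and it ranged from -2.69 to -2.43 when each library in turn was left out. On the authors' FPKM limma gave -2.62 with an adjusted p of 0.0653. In that table, however, the median FPKM was 2.75 in library 4 of wild type and 3.18 in library 3 of *npr-8* mutants against 17.9 to 22.7 in the others, while their fragments showed no such step. In old mutants at 20°C the libraries read 35.3, 37.1, 37.3, 37.5 and 42.6, far below the 126 to 167 of wild type, a difference of -1.82 ± 0.09 (adjusted p = 1.32e-08). In old mutants at 25°C they read 29.5 to 51.2, also below every wild-type library, but the difference of -0.68 was under the minimum for a call. The effect of the mutation in young animals differed between temperatures by -2.58 (adjusted p = 4.72e-07).

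Warm growth of young mutants gave *his-24* a change of -0.99 on the log2 scale (adjusted p = 0.000365), just under the minimum. It passed without library 5 of mutants at 20°C (-1.04) or without library 2 or 3 of mutants at 25°C (-1.10 each). As a share of all histone fragments, *his-24* made up 6.76% in young and 25.0% in old wild-type animals at 20°C, but 8.80% in old mutants at 20°C. Antisense non-coding RNAs are annotated over *his-24*, and whether the authors' counting used strand is not given in the sources used here.

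Other genes of H1-like proteins carry the name hil and are not among the 61. Of these, *hil-3* shared some changes with *his-24* and not others. With warm growth of young wild-type animals it had -0.31 (edgeR adjusted p = 0.114), where *his-24* rose. It had a mean of 23.96 in young and 77.9 in old wild-type animals at 20°C, a change of 1.73 that passed the test, and 21.6 in old mutants at 20°C. The genotype difference of *hil-3* was -1.72 in young animals at 25°C and -1.72 in old animals at 20°C, and both passed. *hil-2* was higher with age at 20°C (1.22) and lower with warm growth of old wild type (-1.33) and in young mutants at 25°C (-1.02), all called, while its change of 0.39 with warm growth of young wild type was not. By contrast, *hil-4* was higher with warm growth (1.60) and with age at 20°C (1.66) in wild type, yet its genotype differences of -0.68 in young animals at 25°C, -0.01 in old animals at 20°C and -0.40 in old animals at 25°C were not called. These genes were picked from the fixed list of other histone genes after their values were seen.

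**Figure D2:**
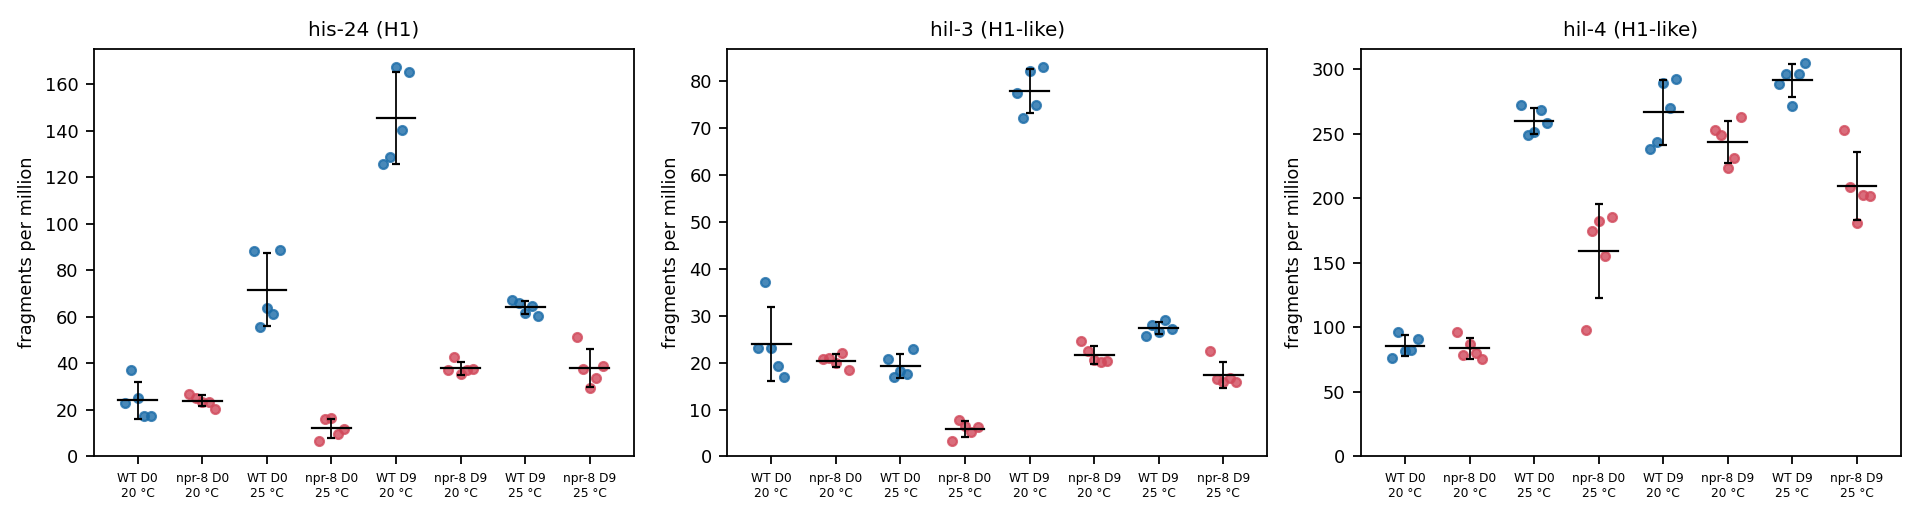
Fragments CPM of *his-24*, *hil-3* and *hil-4* in each of 40 libraries (points), with the mean (line) and SD (bars) of the 5 libraries of each group. Old wild-type animals at 20°C read 126 to 167 for *his-24* and stand above all other groups, and the same group is highest for *hil-3* but not for *hil-4*.

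Among the H3.3-type genes, *his-72* and *his-74* were higher and *his-71* was lower in wild type with warm growth of young animals and with age at 20°C. With age at 25°C the values were 0.63 for *his-72*, -0.14 for *his-74* and 0.13 for *his-71*, and with warm growth of old animals they were 0.06, 0.14 and -0.02, none of them called. *his-72* encodes a replacement histone H3.3 that is found widely in the worm. Its libraries read 58.7, 59.3, 60.4, 62.3 and 76.9 in young wild type at 20°C, 126 to 140 at 25°C, and 181 to 222 in old animals at 20°C. The groups did not overlap. The log2 changes were 1.06 ± 0.07 with warm growth (edgeR adjusted p = 1.75e-09), which fell to 0.90 when scaled by library size alone and was then not called, and 1.65 ± 0.07 with age (adjusted p = 3.82e-11). The authors' interval for *his-72* spans 201327 bases and takes in a snoRNA and many other genes.

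*his-74*, an H3.3-type gene on chromosome V, read 43.95 to 61.3 in young wild type at 20°C and 122 to 144 at 25°C. In old animals at 20°C it read 98.0 to 120, so that warm-grown young animals were the highest of these groups. The changes were 1.38 ± 0.10 with warm growth and 1.11 ± 0.10 with age at 20°C. In young mutants warm growth raised it by 1.09 ± 0.10, from a mean of 46 to 97.6. For both *his-72* and *his-74* the genotype differences were under 1 on the log2 scale in every comparison.

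*his-71*, the H3.3 gene on chromosome X, read 46.1, 48, 49.4, 55.9 and 58.4 in young wild type at 20°C. At 25°C it read 18.3 to 25.0 and in old animals at 20°C 21.1 to 25.8, without overlap with the former. The changes were -1.26 ± 0.09 and -1.10 ± 0.07. The latter was -0.96 with DESeq2's size factors in edgeR, -0.96 in DESeq2 and -0.95 in limma, below the minimum for a call. In old mutants at 20°C *his-71* read 12.6 to 13.8, below every wild-type library, and the difference of -0.73 ± 0.06 (adjusted p = 7.49e-10) was not large enough for a call. *his-71* thus moved against *his-72* and *his-74* with warm growth of young wild type and with age at 20°C. Summed over their genes, the H3.3-type members made up 53.6% of histone fragments in young and 56.8% in old wild-type animals at 20°C, and 60.7% and 68.1% at 25°C.

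**Figure D3:**
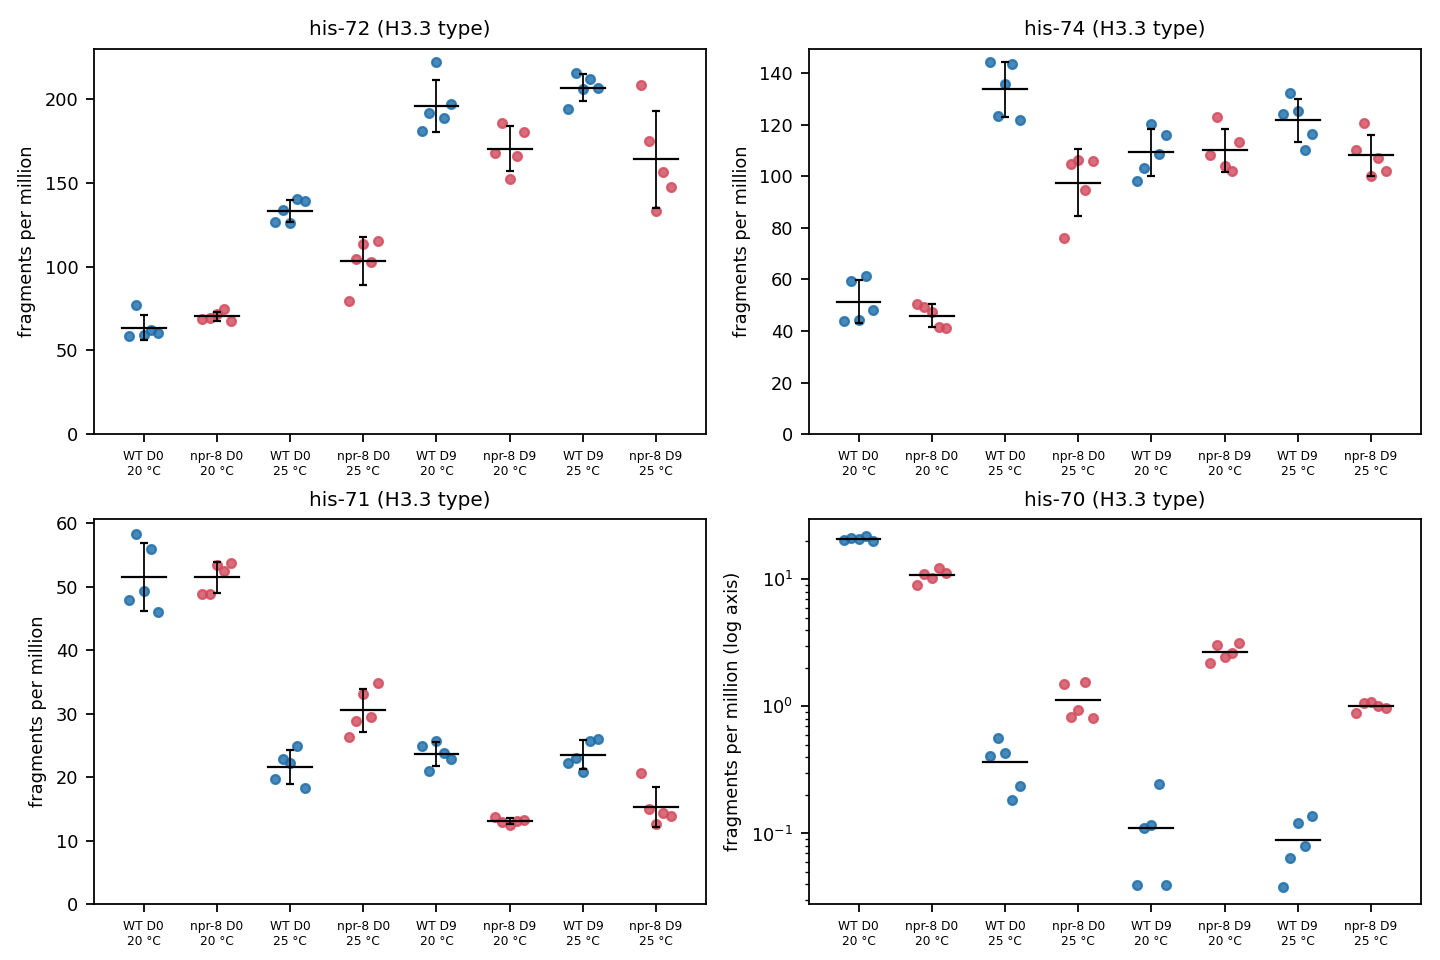
Fragments CPM of *his-72*, *his-74*, *his-71* and *his-70* in each of 40 libraries (points), with the mean of each group of 5 (line) and, on linear axes, its SD (bars); the axis of *his-70* is logarithmic. *his-72* and *his-74* are lowest in young animals at 20°C, where *his-71* is highest, and *his-70* falls from 20.1 to 21.7 in young wild type at 20°C to under 0.25 in old ones.

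The largest changes of any histone gene were those of *his-70*, an H3.3-type gene on chromosome III from 4059690 to 4060094. Young wild-type animals at 20°C held 503, 528, 535, 624 and 631 fragments, or 20.1 to 21.7 CPM. Warm-grown young animals held 4, 5, 10, 10 and 14 fragments (0.18 to 0.57 CPM), old animals at 20°C held 1, 1, 3, 3 and 6, and old animals at 25°C held 1, 2, 2, 3 and 5. The change was -5.80 ± 0.17 with warm growth (edgeR adjusted p = 8.24e-13) and -7.50 ± 0.20 with age at 20°C (adjusted p = 2.83e-13). In both comparisons the gene passed the filter only through the young animals at 20°C, in which it was high.

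In mutants *his-70* fell less. Young mutants at 20°C read 9.07 to 12.2 CPM, below all wild-type libraries, a difference of -0.95 that was not called but reached -1.0025 and was called without library 4 of the mutants. At 25°C young mutants read 0.81 to 1.57, above all wild-type libraries, a difference of 1.67 ± 0.31 (adjusted p = 7.99e-04). This call was absent in limma on the authors' FPKM, with an adjusted p of 0.587 at a pseudocount of 1. In old mutants *his-70* read 2.21 to 3.13 at 20°C and 0.89 to 1.08 at 25°C, against at most 0.24 and 0.14 in wild type. The differences were 4.69 ± 0.26 (adjusted p = 7.16e-13) and 3.50 ± 0.25 (adjusted p = 1.26e-08). In old animals, and in young animals at 25°C, *his-70* passed the filter only through the mutants, in which it was high. The effect of the mutation in young animals differed between temperatures by 2.62, and its effect at 25°C differed between ages by 1.79, both called.

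Sperm genes moved in the same directions. Over 25 genes of a sperm list, mostly *msp* genes for the major sperm protein, the summed level had a median of 1653 CPM in young wild type at 20°C (2353 in mutants) and 198 at 25°C (488 in mutants). In old animals it was 32.3 at 20°C (267 in mutants) and 13.8 at 25°C (109 in mutants). None of these genes was at 0 in all libraries of a group. All 26 tested sperm genes were lower with warm growth of young wild type, against 34.8% of all genes, and all 25 tested were lower with age at 20°C, against 36.7%. In mutants 24 of 24 were higher in old animals at 20°C (11.6% of all genes) and 23 of 23 in old animals at 25°C (10.1%). In young mutants 20 of 23 were higher at 25°C (14.4%) and 0 of 26 at 20°C (4.40%). Only 17 of the 26 passed the filter between the old wild-type groups, and 22 between ages of wild type at 25°C. The rest needed the group in which they were high, young animals at 20°C or the mutants, so that these counts are no support by themselves. The gene *htas-1*, which encodes an H2A variant of sperm chromatin and is not among the 61, changed by -3.13 with warm growth and -6.51 with age at 20°C, and by 4.48 and 3.55 with the mutation in old animals at 20°C and 25°C. The part of sperm content in the values of *his-70* was not tested. In young animals at 20°C the order of the genotypes differed: *his-70* was lower in mutants while the summed sperm level was higher. Old mutants at 20°C read more *his-70* (2.21 to 3.13) than young mutants at 25°C (0.81 to 1.57) at a lower median sum. Old mutants at 25°C (0.89 to 1.08) likewise read more than young wild type at 25°C (0.18 to 0.57) at a lower sum. The means of *htas-1* had the order of the sums in both, 5.99 against 8.12 and 2.25 against 3.08. These pairs of groups were picked after the values were seen. In all other pairs of groups the mean of *his-70* had the order of the median sums.

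**Figure D4:**
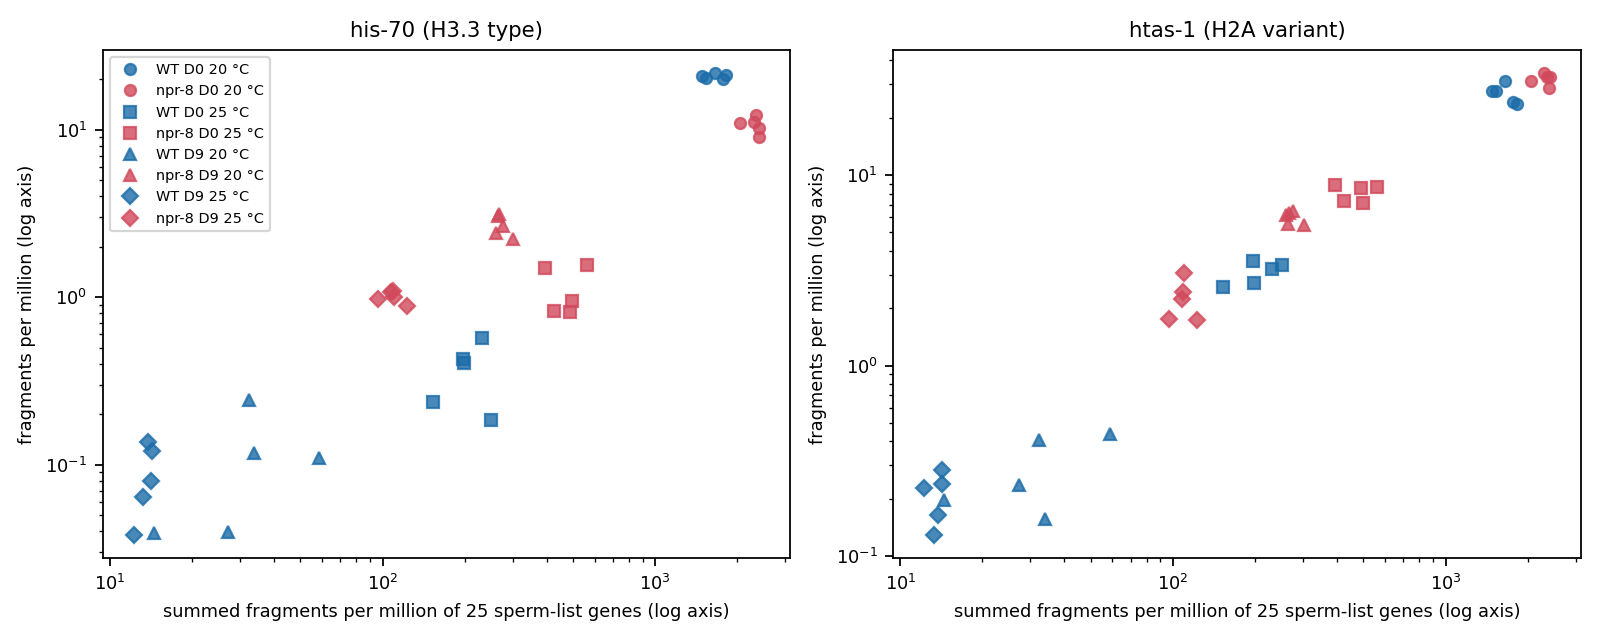
Level of *his-70* and of *htas-1* (vertical axes, CPM, logarithmic) against the summed level of the 25 sperm-list genes (horizontal axes, CPM, logarithmic) in each of 40 libraries, by group. Libraries with a low sum have low values of both genes, and at the highest sums the young mutants at 20°C lie below the young wild-type animals for *his-70* but not for *htas-1*.

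The remaining H3.3-type genes had little RNA. *his-69*, the neighbour of *his-70* on chromosome III, was at most 0.37 CPM in any library and was not tested. *his-73* read 0.24 to 0.51 in old wild-type animals at 20°C and 0.57 to 0.94 in old mutants, with a difference of 1.02 ± 0.25 that passed the test. It did not pass without library 1 (0.90) or 2 (0.94) of wild type or library 2 of mutants (0.89). At 25°C it read 0.19 to 0.33 in old wild-type animals and 0.59 to 0.77 in old mutants, a difference of 1.41 ± 0.21 (edgeR adjusted p = 3.18e-05), which limma put at 0.99. In old animals of both temperatures *his-73* passed the filter only through the mutants, in which it was high, so that these calls are no support by themselves. *his-73* overlaps the gene W09H1.4, so that reads of either may be counted for the other. Its annotated coding length is 138 bases, against 381 to 453 for the other H3.3-type genes, so that its class rests on its name.

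The core histone genes with most fragments changed little. *his-35* (H2A) and *his-41* (H2B) form a head-to-head pair on chromosome V, with *his-37* (H4) beside them, and none of them was called in any comparison. *his-35* had means of 48 in young and 28.7 in old wild-type animals at 20°C and 38.2 and 28.9 at 25°C, and *his-37* had means of 28.9 and 17.6 at 20°C. The age differences at 20°C were -0.72 ± 0.07 for *his-35*, -0.69 ± 0.10 for *his-37* and -0.42 ± 0.07 for *his-41*, with edgeR adjusted p of 2.14e-07, 1.90e-05 and 5.21e-05, all under the minimum size. All of them had smaller differences between temperatures, from -0.33 to -0.08 in young and from -0.01 to 0.08 in old wild-type animals. The mutation gave *his-37* a difference of -0.57 in old animals at 20°C (means 17.6 and 10.9). *his-37* overlaps *nstp-10* on the other strand and *his-41* overlaps C50F4.6.

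A second set stood apart by position, a grouping made after the values were seen and described here without a test of the set. The genes *his-1* to *his-8* form 2 clusters on chromosome V, each with an H2A, an H2B, an H3 and an H4 gene. Their summed level was 5.55 to 13.2 CPM in young wild type at 20°C and 6.56 to 7.82 in young mutants at 20°C. In the other 6 groups it was 1.04 to 2.90, so that the young animals at 20°C of both genotypes were above every other library. *his-3* (H2A) read 2.86, 3.19, 4.09, 5.54 and 6.69 in young wild type at 20°C, against 0.18 to 0.69 at 25°C and 0.22 to 0.51 in old animals at 20°C. Its changes were -3.51 ± 0.33 with warm growth (edgeR adjusted p = 1.88e-07) and -3.66 ± 0.30 with age (adjusted p = 3.30e-08). In young mutants warm growth changed *his-3* by -2.58 ± 0.18.

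With warm growth the other genes of the clusters that passed the test in young wild-type animals were *his-4* (H2B, -3.17 ± 0.43), *his-7* (H2A, -3.02 ± 0.49), *his-2* (H3, -2.17 ± 0.43) and *his-6* (H3, -1.92 ± 0.26). With age at 20°C these genes changed by -2.03, -2.17, -1.16 and -1.65. *his-1*, *his-5* and *his-8* were not tested in these comparisons. The genes entered the tests through the young animals at 20°C, where they were high, so that their number is no support for a common change. All lie in intervals of 743428 and 838319 bases that the authors' program merged. In young mutants *his-4* (-2.40) and *his-7* (-3.47) were called with warm growth. *his-6* was higher in old mutants at 20°C (1.22 ± 0.28, groups overlapping), a gene named after its values were seen. It passed the filter there only through the mutants, in which it was high.

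The other 13 core copies with over 100 fragments had a summed level of 16.2 to 25.1 in young wild type at 20°C, 19.3 to 22.99 at 25°C, 30.2 to 37.3 in old ones and 25.2 to 28.3 in old ones at 25°C. In old mutants it was 33.4 to 37.9 at 20°C and 38.4 to 45.99 at 25°C, so that at 25°C the mutants were above all wild-type libraries. With age at 20°C, 6 of the 13 were higher and 2 lower in wild type, against 26.7% and 36.7% of all genes. The copies that rose were *his-68* (H2A, 1.75 ± 0.13, from 2.11 to 3.03 in young and 7.02 to 9.50 in old animals), *his-67* (H4, 2.68 ± 0.22), *his-32* (H3, 2.56 ± 0.27), *his-63* (H3, 2.08 ± 0.31), *his-64* (H4, 3.17 ± 0.32) and *his-31* (H4, 3.40 ± 0.43). All but *his-68* passed the filter only through the old group, in which they were high, so that their number is no support for a common change. *his-64* and *his-31* read at most 0.13 CPM in young wild type at 20°C.

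The copies that fell with age at 20°C were *his-40* (H3, -2.26 ± 0.26) and *his-59* (H3, -1.005 ± 0.15). The call of *his-59* was lost without library 2 of young (-0.91) or without library 1, 3 or 4 of old animals (-0.98, -0.99 and -0.95). It was also lost with DESeq2's size factors (-0.87), library size alone (-0.9996), DESeq2 (-0.87), the replicate block (-0.9983) and limma (-0.77 and -0.84). *his-60* (H4), at 0.99, was called when any of 5 libraries was left out (1.004 to 1.07), with DESeq2's size factors and in DESeq2 (1.13 each), with the block (1.0003) and in limma (1.15 and 1.18). At 25°C age gave *his-40* a change of -1.20 ± 0.17, which was -0.99 when scaled by library size alone, and *his-38* (H4) one of -1.10 ± 0.26, which was -0.97 without library 1 and -0.92 without library 5 of old animals. There *his-38* needed the young libraries, in which it was high, to pass the filter.

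With warm growth of young wild-type animals, 3 of 11 tested were higher and 1 was lower, against 21.4% and 34.8% of all genes, with a median of 0.13. The higher ones were *his-68* (1.47 ± 0.14, edgeR adjusted p = 1.37e-07), *his-63* (1.39 ± 0.30, groups overlapping) and *his-32* (1.33 ± 0.30), of which *his-63* and *his-32* passed the filter only through the 25°C group, and the lower one was *his-59* (-1.46 ± 0.19). In young mutants 5 of 11 were higher, against 12.8% of all genes: *his-63* (1.31), *his-38* (1.23), *his-68* (1.15), *his-32* (1.12) and *his-67* (1.05). Among them *his-63*, *his-32* and *his-67* needed the 25°C libraries to pass the filter. Of these, *his-32* lost its call without library 2 (0.9965) or 5 (0.97) of mutants at 20°C or library 4 at 25°C (0.98), *his-67* without library 2 at 20°C (0.95) or library 1 at 25°C (0.83), and *his-38* without library 1 at 25°C (0.96). In old wild-type animals *his-31* was lower at 25°C (-1.08 ± 0.30, groups overlapping), a call lost without library 3 or 5 at 20°C (-0.92 and -0.9977) or library 1, 2 or 5 at 25°C (-0.98, -0.96 and -0.93). It passed the filter there only through the 20°C group, in which it was high.

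In old animals some of these copies were higher in *npr-8* mutants. *his-61* (H2A) read 1.28, 1.33, 1.68, 1.77 and 1.79 CPM in old wild-type animals at 25°C and 4.21, 4.89, 5.10, 5.55 and 5.82 in old mutants. The groups were far apart, with a difference of 1.76 ± 0.13 (edgeR adjusted p = 1.14e-08). *his-64* (1.61 ± 0.24) and *his-67* (1.19 ± 0.14) were also higher in old mutants at 25°C, without overlap of the groups. Of these, *his-64* needed the mutant libraries to pass the filter. At 20°C the difference in old animals was called for *his-48* (H2B, 1.06 ± 0.11). For *his-61* the difference between the genotype effects in old and young animals at 25°C was 1.46, and for *his-64* it was 2.21, both called.

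**Figure D5:**
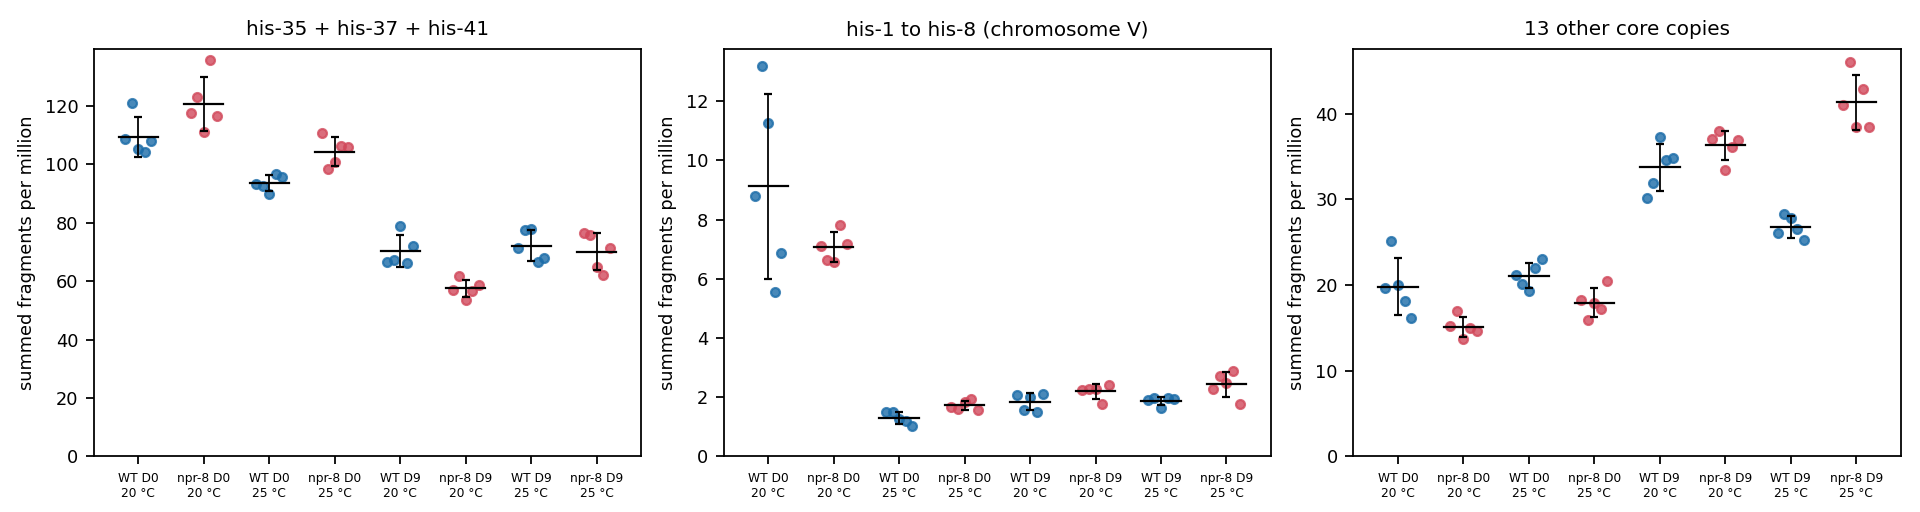
Summed CPM of *his-35*, *his-37* and *his-41* (left), of *his-1* to *his-8* on chromosome V (middle) and of the other 13 core copies with over 100 fragments (right) in each of 40 libraries (points), with the mean (line) and SD (bars) of each group of 5. The chromosome V sum is 5.55 or more in all young animals at 20°C and at most 2.90 in all other libraries, and the sum of the 13 others reaches 38.4 to 45.99 in old mutants at 25°C.

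Neighbours in head-to-head pairs were not always alike. The pair of *his-3* and *his-4* fell with warm growth and with age in wild type, and the pair of *his-67* and *his-68* rose with age at 20°C. In the pair of *his-61* and *his-62* the difference of the former in old mutants at 25°C (1.76) stood beside 0.94 for the latter, which was not called, while the difference between the genotype effects in old and young animals was 1.46 and 1.24, both called. In the pair of *his-59* and *his-60* age at 20°C gave -1.005 and 0.99, opposite in sign. Whether 2 members of a pair differ was not tested.

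Summed by class, only the H1 class, which is *his-24* alone, was called. The H3.3-type total changed by 0.62 ± 0.06 with warm growth of young wild-type animals and 0.83 ± 0.07 with age at 20°C, the H3 total by -0.70 ± 0.15 and -0.39 ± 0.16, and the H2A total by -0.31 ± 0.06 and -0.50 ± 0.07. None of these reached the minimum size. The H4 total had -0.22 ± 0.09 and -0.19 ± 0.10. The totals are set by the few genes with most fragments.

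Most variants outside the 61 and most genes that handle histones were higher in wild type with warm growth of young animals and with age at 20°C. Among other histone genes of the fixed list, 5 of 9 tested were higher and 1 lower with warm growth of young animals, against 21.4% and 34.8% of all genes. With age at 20°C, 9 of 10 were higher and 1 lower, against 26.7% and 36.7%. The variant genes included *htz-1* (H2A.Z, 1.49 and 2.24) and the CENP-A genes *hcp-3* (1.69 and 2.02) and *cpar-1* (2.85 and 2.93). Of 11 genes for histone RNA processing and histone chaperones, 9 were higher in each of these comparisons, with medians of 1.65 and 1.92 beside -0.14 and -0.16 over all genes. They included *cdl-1*, which encodes the protein that binds the stem-loop of histone RNAs (2.08 and 2.69), and *chaf-1*, a subunit of the chromatin assembly factor that deposits H3 and H4 at replication (1.91 and 2.44). With age at 25°C, 0 of these 11 were called, and 2 of 10 other histone genes were higher and 1 lower, against 9.07% and 15.4% of all genes. With warm growth of old wild type 0 of the 11 were called, and 0 of 10 other histone genes were higher and 2 lower, against 1.98% and 4.25%. In *npr-8* mutants none of the 11 was called against wild type at either age or temperature by edgeR. All 18 tested S phase genes and all 18 oocyte and embryo genes were also higher with warm growth of young wild type and with age at 20°C, against 21.4% and 26.7% of all genes.

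The levels of the tissue lists also differed between the groups, in part along with the histone genes and in part against them. The summed level of 17 oocyte and embryo genes had a median of 956 CPM in young wild type at 20°C, 13840 at 25°C, 13240 in old animals at 20°C and 15500 in old animals at 25°C. In mutants it was 2085, 9544, 11330 and 10900 in the same order. The S phase genes had 991, 4843, 6126 and 5693 in wild type. With the mutation in young animals at 20°C, 12 of 18 oocyte and embryo genes were higher, against 4.40% of all genes, where no histone gene was called. With warm growth of young mutants 18 of 18 were higher, against 12.8% of all genes, where *his-24* had -0.99. Body wall muscle genes moved the other way in wild type, with 10 of 12 lower with warm growth in young animals (34.8% of all genes) and 12 of 12 lower with age at 20°C (36.7%). The part of germline, embryo or muscle content in the values of the histone genes was not tested.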

How the data were processed

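Whole-animal RNA (poly(A)-selected, stranded library kit) was sequenced in 40 libraries. The authors aligned reads to ce10 with HISAT2 by the study's methods, whereas the submitters' processing notes list Bowtie2 2.3.4 and Cufflinks 2.2.1, and estimated fragments with Cuffdiff. Use of strand and treatment of multi-mapped reads are not given in the sources used here. The deposited tables hold expected counts (unscaled fragments) per gene and library, as the authors' Cuffdiff run estimated them, and FPKM, which the authors scaled within each table. Tables of group FPKM with the authors' fold changes and p-values were used for FPKM and intervals only. In all, 12 columns of fragments scaled by the authors were not used here.

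Expected counts were rounded. Old animals at 20°C had a transcript table for the mutants, which was summed to genes by accession (36894 genes) or by matching wild-type counts (2077), covering 81.5% of wild-type fragments and 51 of 61 members. The summed FPKM was within 2% of the authors' value for 99.3% of genes. Genes marked as failed or too deep (113) were left out. Tests used edgeR 4.0.16 in R 4.3.3 (filterByExpr with minimum count 10 and total 15, TMM, robust quasi-likelihood fit, two-sided), fitted on the 2 groups of a comparison, or on the 4 groups for a difference between effects, and adjusted over all genes tested. SE is the size of the log2 change over the root of its F value. The procedure was tested on simulated counts. Alternatives were other scaling, no filter, no minimum change, DESeq2 1.42.0, limma 3.58.1 on FPKM, a fit of 35 libraries, a replicate block and leaving out each library. Correlations of same-numbered libraries ranged from -0.351 to 0.148, and no comparison had all 5 pairs over 0.1. The main tests therefore used no pairing, which this check cannot exclude.

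Named members were the 2 most abundant of each core class, H1 and H3.3-type members, up to 4 called, non-overlapping members per direction and comparison, and called members opposed to their class. Members and lists were chosen with earlier results of these data known. Fragments are not independent molecules, so that floors cover counting error only.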

Additional observations from a re-analysis of the deposited data

Results flagged for a closer look

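In 200 sets of 5 libraries (25 named members in 8 groups), 13 had a library far from the others, where chance gives about 1 in 20. The library apart was not the same for all genes of a group. In young mutants at 20°C library 4 read 44.1 for *his-41* (others 36.6 to 38.6) and 0.547 for *his-32* (0.139 to 0.238), and library 2 read 0.678 for *his-7* (0.952 to 1.05). In young mutants at 25°C library 1, which had the scaling factor of 1.304, read 35 for *his-35* (41.7 to 42.9) and 40.1 for *his-37* (23.4 to 28.1). Library 5 of that group read 0 for *his-7* (0.0866 to 0.102). In old mutants at 25°C library 1 read 4.46 for *his-59* (3.05 to 3.202). Library 2 of these read 0.368 for *his-69* (0.0929 to 0.167) and 2.31 for *his-32* (1.48 to 1.54), and library 4 read 4.15 for *his-67* (2.76 to 3.07). In wild type 1 library of each of these groups stood apart, with 1.34 for *his-40* in young animals at 25°C (1.88 to 1.94), 76.9 for *his-72* in young animals at 20°C (58.7 to 62.3) and 1.74 for *his-67* in old animals at 20°C (2.56 to 2.85). All values are CPM.

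The effect of age in wild type differed between temperatures, by edgeR's test of the difference on the log2 scale, for 15 named members. The effect at 25°C minus that at 20°C was positive for *his-70* (5.54), *his-3* (3.93), *his-7* (3.08), *his-4* (2.77), *his-59* (1.69), *his-71* (1.26) and *his-40* (1.09). It was negative for *his-24* (-2.75), *his-64* (-2.15), *his-31* (-1.81), *his-68* (-1.76), *his-32* (-1.75), *his-63* (-1.67), *his-67* (-1.66) and *his-74* (-1.22). The call of *his-31* was lost in 10 of the fits that left out 1 library (-1.75 to -1.49) and that of *his-40* in 4 (0.91 to 0.9965).

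The effect of the mutation in young animals differed between temperatures for *his-70* (2.62) and *his-24* (-2.58). Its effect at 25°C in old minus young animals was positive for *his-64* (2.21), *his-24* (1.86), *his-73* (1.80), *his-70* (1.79), *his-61* (1.46), *his-60* (1.26), *his-67* (1.25), *his-48* (1.20) and *his-63* (1.17), and negative for *his-38* (-1.13) and *his-71* (-1.10). The call of *his-38* was lost in 12 of the fits that left out 1 library (-1.17 to -0.88).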

How the results depend on the processing

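No result changed its direction among called values. With no minimum change, the members higher and lower were, for warm growth, 15 lower in young wild type, 7 lower in old wild type and 9 lower in young mutants; for age, 14 lower at 20°C and 7 and 6 at 25°C; for the mutation, 1 and 6 in young animals at 20°C, 4 and 8 at 25°C, and in old animals 10 and 5 at 20°C and 12 and 3 at 25°C; and 2 lower for the difference of its effect between temperatures. With no filter on low counts they were 1 higher with warm growth of old wild type, 8 lower with that of young mutants, 2 higher with age at 25°C and 2 lower with the mutation in old animals at 20°C. Age at 25°C gave 1 higher with DESeq2's size factors, 1 in DESeq2, 1 in the fit of 35 libraries, and 2 higher and 0 lower with library size alone, a scaling under which the median of all genes in this comparison moved from -0.01 to 0.20. With library size alone the mutation in young animals at 25°C had 2 higher, and its difference between ages 1 lower. In limma on FPKM it had 0 higher and 0 lower at both pseudocounts. These causes were not tested.

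With the replicate number as a block, the H1 total passed for warm growth of young mutants (-1.03), and no count of calls moved by over 1.5 times. In no comparison did every library correlate best with its own number, and the most was 3 of 5, for the mutation in old animals at 25°C. Such a check cannot exclude a pairing, and the numbers were used as names only.

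Leaving out 1 library, warm growth had 6 to 7 higher and 8 to 9 lower in young wild type, 0 and 1 to 2 in old wild type, and 4 to 6 and 4 to 6 in young mutants. Age had 9 to 11 and 7 to 9 at 20°C, and 0 to 2 and 1 to 2 at 25°C. The mutation in young animals had 0 and 0 to 1 at 20°C and 1 and 1 to 2 at 25°C, and in old animals 3 to 5 and 1 to 2 at 20°C and 5 to 6 and 0 at 25°C. The difference of age effects between temperatures had 8 to 9 and 7 to 9, that of the mutation between temperatures 1 to 3 and 1, and between ages 10 to 11 and 1 to 2. Counted over each named gene in each of these fits, a call was lost in 46 and gained in 29. The outcome was unchanged in 3095, which includes genes that were called neither with nor without the library. Members with under 1 CPM rest on few fragments a library.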
